A study of Mus musculus with 6 samples.

Results

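The 9 genes that mark dopamine and serotonin neurons were followed in the whole brains of mouse embryos with and without BAHD1, a scaffold protein that helps to form repressive chromatin. The genes were taken by symbol from a table of 53801 genes, and each of the 9 symbols was found once. Th, Slc6a3, Nr4a2 and Pitx3 belong to dopamine neurons, Tph2, Slc6a4 and Fev to serotonin neurons, and Ddc and Slc18a2 serve both. Polyadenylated RNA had been sequenced from 3 Bahd1-KO embryos (homozygous knockout, genotype Bahd1-/-) and 3 Bahd1-WT embryos at stage E16.5, all C57BL/6. The embryos are called KO1, KO2 and KO3, and WT1, WT2 and WT3, by genotype and replicate number. According to the study's methods, Bahd1-KO animals came from crosses of heterozygous Bahd1 mice. The study set the genotypes side by side to learn if BAHD1 matters for brain gene expression during development. Each library was the brain of 1 embryo, and whether embryos came from the same litter is not given in the sources used here.

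Dopamine is made from tyrosine by tyrosine hydroxylase (Th) and aromatic amino acid decarboxylase (Ddc). Serotonin is made from tryptophan by tryptophan hydroxylase 2 (Tph2) and the same Ddc. The vesicular monoamine transporter (Slc18a2) loads both transmitters into vesicles, and the plasma membrane transporters for dopamine (Slc6a3) and serotonin (Slc6a4) take them back into the cell. Most dopamine neurons of the brain lie in the ventral midbrain, where the transcription factors Nr4a2 and Pitx3 establish and keep their identity. Further groups lie in the hypothalamus and the olfactory bulb. Serotonin neurons lie in the raphe nuclei of the hindbrain and depend on the ETS factor Fev, also called Pet1. Both kinds of neuron are few, so that a whole brain holds their transcripts at low levels. In such bulk samples, fewer cells of a type and less RNA per cell cannot be told apart.

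In units of 1e6 counts, libraries held from 61.7 to 91.8. The targeted gene had 2, 10 and 6 counts in KO1, KO2 and KO3, and 1971, 3102 and 3470 counts in WT1, WT2 and WT3, so every library matched its label. All 8 genes of a list of general neuron markers had counts in each of the 6 embryos. The Bahd1-KO libraries stood apart in ways that touch every result here. In KO3, 5 abundant RNAs that carry no long poly(A) tail (Gm42418, mt-Rnr1, mt-Rnr2, Rn7sk and Rny1) took 44.9% of the counts, against 0.250% to 0.616% in the other 5 embryos. In the same embryo, 6 lung genes reached a summed level of 1730 scaled counts per 1e6, against 0.672 in KO1 and 0.804 to 2.22 in the Bahd1-WT embryos. KO2 held 12.7, or 854% of the Bahd1-WT mean, with 5 of the 6 genes over 200% of theirs. KO3 also held 14.2% of the Bahd1-WT mean for 9 cortex and striatum genes and 34.3% for the 8 neuron genes. In KO1, the cortex and striatum genes stood at 130% and the neuron genes at 88.5%, while 6 of 11 hindbrain genes (mostly Hox genes) had no count, against 1 to 3 in the Bahd1-WT embryos. KO2 held placenta genes at a summed level of 10.5 on that scale, against 0 to 0.136 in the other embryos. Results are therefore also given without KO1 and KO3, a fit in which KO2, with its lung and placenta transcripts, is the Bahd1-KO embryo that remains.

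The regions just upstream of the genes show what the members share in sequence and what they do not. The 4 promoters below are those of the 2 rate-limiting enzymes, Th and Tph2, and of the 2 further serotonin genes, chosen after their values were seen. They are the reference sequence of RefSeq for GRCm38.p6, from position -250 to position -21 relative to the annotated start (230 bases, 5′ to 3′ on the strand of the gene). Capitals mark matches to a short motif searched on both strands.
Th, chr7:142900016-142900245, minus strand: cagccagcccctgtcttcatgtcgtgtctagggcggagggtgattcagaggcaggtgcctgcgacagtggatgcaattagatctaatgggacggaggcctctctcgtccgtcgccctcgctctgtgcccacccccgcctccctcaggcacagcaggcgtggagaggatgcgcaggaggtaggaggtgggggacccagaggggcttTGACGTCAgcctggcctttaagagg
Tph2, chr10:115185043-115185272, minus strand: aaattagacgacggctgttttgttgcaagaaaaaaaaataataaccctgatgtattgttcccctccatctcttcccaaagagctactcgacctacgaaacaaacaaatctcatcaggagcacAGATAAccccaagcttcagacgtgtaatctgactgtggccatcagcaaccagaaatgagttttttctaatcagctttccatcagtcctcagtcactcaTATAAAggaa
Slc6a4, chr11:76998347-76998576, plus strand: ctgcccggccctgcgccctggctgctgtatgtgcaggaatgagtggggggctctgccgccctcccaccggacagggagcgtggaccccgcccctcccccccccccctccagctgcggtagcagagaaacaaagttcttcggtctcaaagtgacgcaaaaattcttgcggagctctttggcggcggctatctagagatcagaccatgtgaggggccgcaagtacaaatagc
Fev, chr1:74885429-74885658, minus strand: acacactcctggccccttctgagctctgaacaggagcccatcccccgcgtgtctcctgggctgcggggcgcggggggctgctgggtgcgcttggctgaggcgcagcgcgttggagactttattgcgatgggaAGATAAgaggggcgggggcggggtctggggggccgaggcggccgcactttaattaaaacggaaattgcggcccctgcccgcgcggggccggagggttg
The motifs were the TATA box (TATAAA), the cAMP response element (TGACGTCA), an NR4A response element (AAAGGTCA), a GATA site (AGATAA) and an ETS site (CCGGAAG). In the Th window the cAMP response element began at position -45, a motif held by 1.3% of 32817 promoters of the same length. Tph2 had a GATA site from position -128 and a TATA box from position -30, and Fev had a GATA site from position -118. GATA sites occurred in 9.5% of all promoters and TATA boxes in 11.8%. No motif was found in the Slc6a4 window. Of the members not printed, Ddc held an NR4A element that began at position -73 and shared 3 bases with a TATA box from position -68, both on the opposite strand, Slc18a2 held a GATA site from position -230 on the opposite strand, Nr4a2 held a TATA box from position -164 on the opposite strand, and Slc6a3 and Pitx3 held none. The NR4A element occurred in 1.2% of promoters and the ETS site in 5.6%, with no member holding the ETS site. A match is a run of letters and not evidence of a bound factor.

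In Bahd1-WT brains, the members covered a wide range of levels. Levels of different genes are compared per kilobase of exon, as counts per 1e6 counts scaled by trimmed mean of M-values factors (TMM-scaled CPM) and divided by length. Nr4a2 was highest at 11.6 ± 2.12 (SD, n = 3), followed by Slc18a2 at 4.82 ± 0.864. Then came Ddc at 1.97 ± 0.308, Th at 1.79 ± 0.537, Slc6a4 at 1.62 ± 0.299, Tph2 at 1.44 ± 0.225 and Slc6a3 at 1.18 ± 0.178. The ranges of each pair of neighbours from Ddc down to Slc6a3 overlapped, so the order of neighbours is not resolved by these embryos, whereas the range of Ddc (1.69 to 2.30) lay above that of Slc6a3 (1.01 to 1.36). Fev at 0.416 ± 0.0857 and Pitx3 at 0.0347 ± 0.0126 were lower than every value of the gene above them. The neuron-specific enzymes and transporters of dopamine and serotonin thus had similar levels per length in the wild-type brain, while Nr4a2, which is also expressed in cortical neurons, was higher than Th and Slc6a3.

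No member passed the test between genotypes. Of the 9 members tested, 0 were called by the quasi-likelihood test of edgeR at an adjusted p under 0.05, against 0.00404% of all 24739 genes tested, which is 1 gene, Bahd1 itself. DESeq2, voom and edgeR's likelihood ratio test each called 0 members too. At an unadjusted p under 0.05, edgeR counted 0 members, against 4.67% of all genes, DESeq2 counted 0, against 5.12% of all genes, and voom counted 4, against 8.95%. The Bahd1-KO values of a gene were all lower than its Bahd1-WT values for 0 members, against 2.24% of all genes. Each of the 9 fitted differences was negative, with a median log2 fold change of -0.46 beside a median of 0.06 over all genes. That direction rested on KO1 and KO3: with both left out, the median was 0.19 and 1 of 9 members (Nr4a2) had a lower level in the remaining Bahd1-KO embryo. The lone Bahd1-KO embryo is then assumed to vary like the Bahd1-WT group. Without KO2, by contrast, the median was -1.21 and 3 members reached an unadjusted p under 0.05, against 20.2% of all 24149 genes tested there, with 0 members called (lowest edgeR adjusted p = 0.235). The values of the members thus depended on which Bahd1-KO embryos were used.

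**Figure D1:**
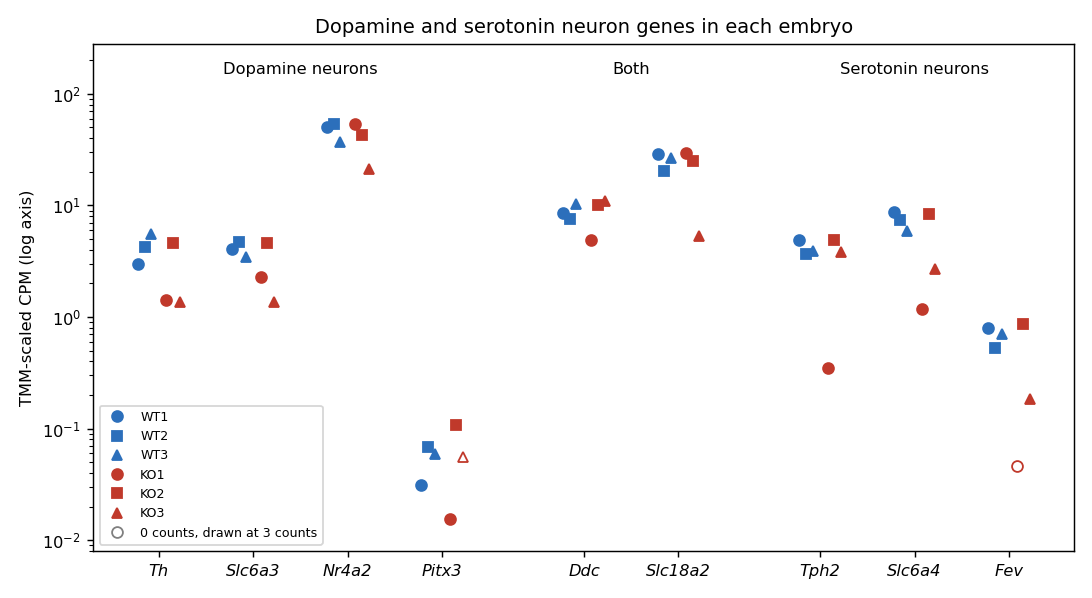
Level of each gene in each embryo, as TMM-scaled CPM on a log axis; blue points are Bahd1-WT and red points Bahd1-KO embryos, the shape gives the replicate number, and an open point is a count of 0 drawn at the level of 3 counts. KO1 (red circles) lies below the other embryos for Tph2, Slc6a4 and Fev, whereas KO2 (red squares) lies within or above the range of the Bahd1-WT points for every gene.

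The 3 serotonin genes were all very low in KO1, and for Tph2 no other embryo was low. Tph2 (ENSMUSG00000006764, chr10:115078641-115185022), the rate-limiting enzyme of serotonin synthesis in neurons, had 23, 411 and 205 counts in KO1, KO2 and KO3, and 467, 322 and 394 counts in WT1, WT2 and WT3. After scaling, the levels were 0.351, 4.87 and 3.80 TMM-scaled CPM in KO1, KO2 and KO3, and 4.88, 3.65 and 3.90 in WT1, WT2 and WT3. KO1 thus held 8.47% of the Bahd1-WT mean, and the other 2 Bahd1-KO embryos lay inside the Bahd1-WT range. The counting interval of the low value (95%, Poisson) ran from 0.223 to 0.527 TMM-scaled CPM, below the intervals of the other 5 embryos. The fitted log2 fold change was -0.46 (SE 0.80, 95% interval -2.35 to 1.43, edgeR adjusted p = 0.849). Without KO1 it was 0.07 and without KO2 -1.03 (adjusted p = 0.548). On total counts, without TMM factors, KO3 had 2.60 CPM and lay below the Bahd1-WT range of 3.95 to 5.09.

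Slc6a4 (ENSMUSG00000020838, chr11:76998603-77032340), the serotonin transporter and the target of serotonin reuptake inhibitors, had 77, 703 and 145 counts in KO1, KO2 and KO3, and 829, 655 and 601 in WT1, WT2 and WT3. KO1 and KO3 were both below the Bahd1-WT range, at 16.0% and 36.6% of its mean, and KO2 was inside it. The mean level was 4.06 ± 3.77 TMM-scaled CPM (SD, n = 3) over KO1 to KO3 and 7.35 ± 1.36 over WT1 to WT3. This gave a log2 fold change of -0.85 (SE 0.68, 95% interval -2.45 to 0.74, edgeR adjusted p = 0.697). With single embryos left out, it ranged from -1.96 without KO2 (adjusted p = 0.235) to -0.41 without KO1. Fev (ENSMUSG00000055197, chr1:74881509-74885419), the transcription factor that turns on the serotonin genes, had 0, 73 and 10 counts in KO1, KO2 and KO3, and 76, 46 and 71 in WT1, WT2 and WT3. With a floor of 3 counts, or 0.0458 TMM-scaled CPM, for the 0 in KO1, the level there was at least 14.7-fold lower than the Bahd1-WT mean of 0.673 ± 0.139 (SD, n = 3). The 95% Poisson interval of that 0 reached slightly higher, to 0.0563, and the fold leaves out the spread of the Bahd1-WT embryos. Its log2 fold change was -0.92 (SE 1.22, 95% interval -3.79 to 1.95, edgeR adjusted p = 0.798), from -2.91 without KO2 (adjusted p = 0.249) to -0.34 without KO1. The intervals of the 3 serotonin genes over all embryos are wide and include 0, so neither a large decrease nor an increase could be told from no change with these 6 embryos.

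For Th and Slc6a3, KO1 and KO3 were low together. Th (ENSMUSG00000000214, chr7:142892752-142931128) had 94, 385 and 74 counts in KO1, KO2 and KO3, and 283, 373 and 555 in WT1, WT2 and WT3. KO1 and KO3 held 33.9% and 32.4% of the Bahd1-WT mean and lay below all Bahd1-WT embryos, while KO2 held 108%. The mean level was 2.46 ± 1.82 TMM-scaled CPM (SD, n = 3) over KO1 to KO3 and 4.23 ± 1.27 over WT1 to WT3. Th had the lowest p of the 9 members, with a log2 fold change of -0.78 (SE 0.57, 95% interval -2.13 to 0.57, edgeR unadjusted p = 0.215 and adjusted p = 0.696). With single embryos left out, it ranged from -1.63 without KO2 (adjusted p = 0.235) to -0.49 without KO3. The dopamine transporter gene Slc6a3 (ENSMUSG00000021609, chr13:73536747-73578672) had 148, 390 and 73 counts in KO1, KO2 and KO3, and 389, 415 and 351 in WT1, WT2 and WT3. It followed the same order, with KO1 and KO3 at 55.3% and 33.1% of the Bahd1-WT mean and below its range, and KO2 within it. Its log2 fold change was -0.57 (SE 0.50, 95% interval -1.75 to 0.61, edgeR adjusted p = 0.712), from -1.21 without KO2 (adjusted p = 0.239) to -0.25 without KO3.

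Nr4a2 (ENSMUSG00000026826, chr2:57106830-57124003), the nuclear receptor also called Nurr1, had 3498, 3608 and 1140 counts in KO1, KO2 and KO3, and 4865, 4704 and 3769 in WT1, WT2 and WT3. In KO1 it stood at 113% of the Bahd1-WT mean, the embryo in which Th was at 33.9%, and in KO3 at 44.8%. Its log2 fold change was -0.27 (SE 0.37, 95% interval -1.15 to 0.60, edgeR adjusted p = 0.806), and 0.01 without KO3. Pitx3 (ENSMUSG00000025229, chr19:46135685-46148326) had 1, 9 and 0 counts in KO1, KO2 and KO3, and 3, 6 and 6 in WT1, WT2 and WT3. A Pitx3 difference was not detectable at this depth, since the limit that 0 counts allow in KO3 (0.0556 TMM-scaled CPM) is above the Bahd1-WT mean of 0.0529.

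The 2 genes that both transmitters need differed in which embryo was low. Ddc (ENSMUSG00000020182, chr11:11814101-11898144) had 318, 848 and 586 counts in KO1, KO2 and KO3, and 821, 663 and 1035 in WT1, WT2 and WT3. KO1 was below the Bahd1-WT range at 55.3% of its mean, and KO2 and KO3 stood at 114% and 124%. On total counts, KO3 had 7.42 CPM and lay below the Bahd1-WT values of 8.13 to 11.3, so its place depends on the scaling. The log2 fold change of Ddc was -0.03 (SE 0.39, 95% interval -0.94 to 0.87, edgeR adjusted p = 0.98), and its sign turned with upper-quartile scaling, to 0.08. Slc18a2 (ENSMUSG00000025094, chr19:59260896-59296012) had 1938, 2125 and 288 counts in KO1, KO2 and KO3, and 2775, 1781 and 2665 in WT1, WT2 and WT3. It was low in KO3 alone, at 21.2% of the Bahd1-WT mean, and stood at 117% in KO1, where Tph2 and Fev were nearly absent. Its log2 fold change was -0.33 (SE 0.58, 95% interval -1.69 to 1.03, edgeR adjusted p = 0.85), and 0.10 without KO3.

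**Figure D2:**
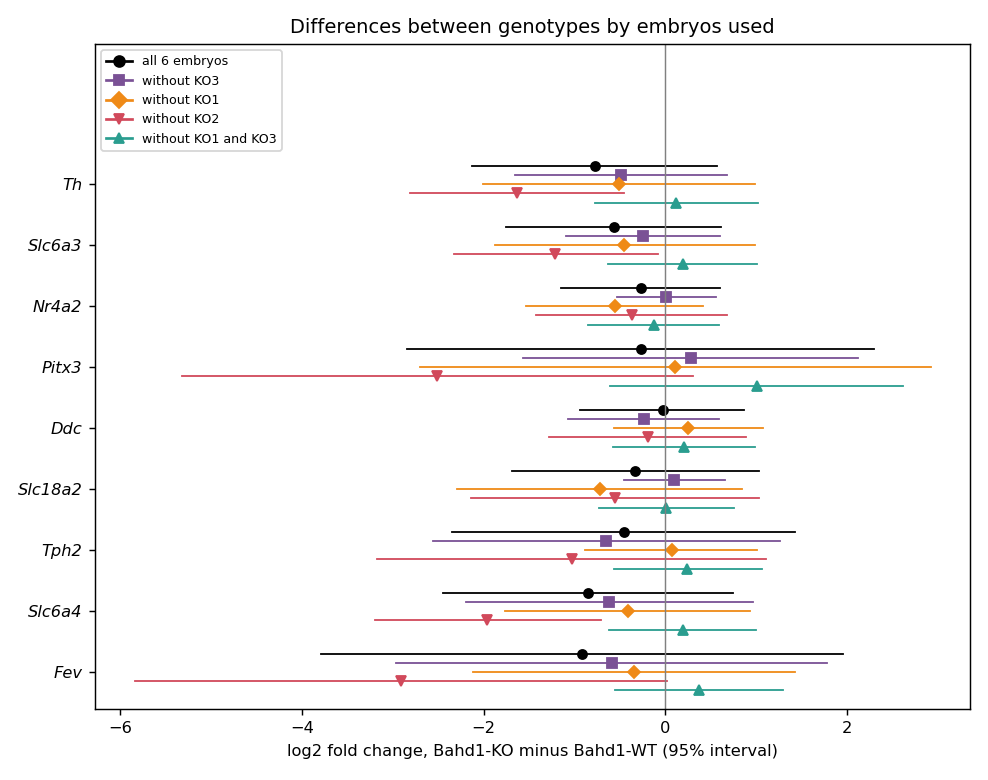
Log2 fold change between Bahd1-KO and Bahd1-WT embryos for each gene, with its 95% interval from edgeR, for all 6 embryos and with 1 or 2 Bahd1-KO embryos left out. With all embryos the 9 points lie from -0.92 (Fev) to -0.03 (Ddc), and with KO1 and KO3 left out 8 of 9 points lie above 0, from 0.01 (Slc18a2) to 1.01 (Pitx3), whereas without KO2 all 9 points lie below 0, from -2.91 (Fev) to -0.19 (Ddc), as do the whole unadjusted intervals of Th, Slc6a3 and Slc6a4.

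The balance between serotonin and dopamine genes can be read within a library, where scaling plays no part. Counts of Tph2, Slc6a4 and Fev made up 29.2% of the counts of these 3 genes together with Th and Slc6a3 in KO1 (95% Wilson interval 24.7% to 34.3%, counting error only). The same share was 60.5% and 71.0% in KO2 and KO3, and 67.1%, 56.5% and 54.1% in WT1, WT2 and WT3. KO1 was therefore the embryo with the lowest share, and its interval did not reach that of any other embryo. The genes of this share were chosen after their values were seen. Within the serotonin genes, Tph2 made up 58.6% of the counts of Tph2 and Slc6a4 in KO3 (interval 53.3% to 63.6%), against 33.0% to 39.6% in the Bahd1-WT embryos and 23.0% in KO1 (interval 15.8% to 32.2%). Th made up 38.8% to 50.3% of the counts of Th and Slc6a3 in Bahd1-KO and 42.1% to 61.3% in Bahd1-WT embryos, and the groups overlapped.

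**Figure D3:**
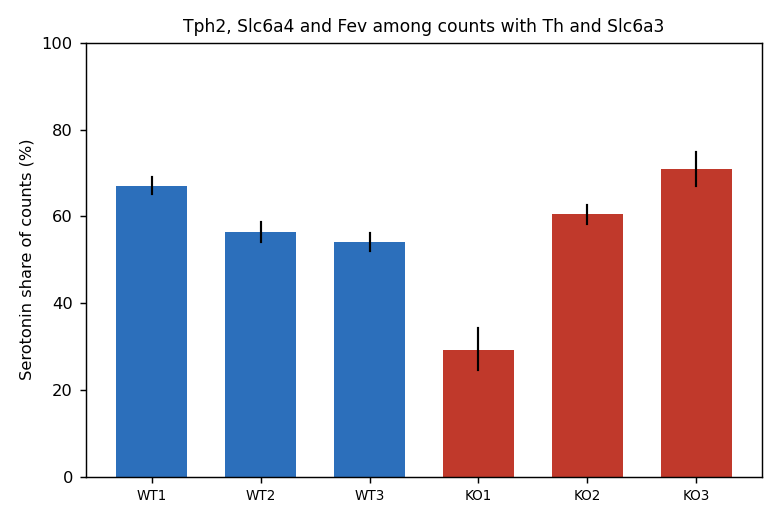
Share of Tph2, Slc6a4 and Fev among the counts of these genes, Th and Slc6a3 in each embryo, in percent; bars are single embryos, blue for Bahd1-WT and red for Bahd1-KO, and black lines are 95% Wilson intervals. KO1 stands at 29.2% and the other 5 embryos at 54.1% to 71.0%.

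To place these values, each Bahd1-KO embryo was set beside all 15618 genes with a mean of at least 50 counts. In KO1, 0.269% of these genes were at or below the level of Tph2 relative to the Bahd1-WT mean, 0.423% at or below that of Slc6a4 and 2.84% at or below that of Th, whereas 14.0% were at or below those of Ddc and Slc6a3. Nr4a2 and Slc18a2 stood among the middle of the genes of this embryo, with 64.9% and 69.4% at or below them. In KO3, 26.8% of genes stood under 50% of the Bahd1-WT mean and 18.8% over 200%. The share of genes at or below a member there was lowest for Slc18a2, at 7.27%. It was 13.9% for Th, 14.3% for Slc6a3, 16.7% for Slc6a4 and 22.8% for Nr4a2, and 54.7% for Tph2 and 67.7% for Ddc. In KO2, all members stood at 90.6% or more of the Bahd1-WT mean, with a median of 113%.

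Noradrenaline cells use Th as well, and they convert dopamine further with dopamine beta-hydroxylase (Dbh). Their marker genes were nearly absent from KO1. Dbh had 2, 200 and 40 counts in KO1, KO2 and KO3, and 170, 110 and 168 in WT1, WT2 and WT3. The noradrenaline transporter gene Slc6a2 had 4, 590 and 142 counts against 717, 334 and 422. The summed level of the 5 listed genes was 2.55% of the Bahd1-WT mean in KO1, 151% in KO2 and 53.3% in KO3. Dbh made up 2.08% of the counts of Dbh and Th in KO1 (95% Wilson interval 0.573% to 7.28%) and 22.8% to 37.5% in the other 5 embryos. The Th transcripts of that embryo were thus accompanied by few Dbh transcripts. No gene of the list passed the test between genotypes, with 4 of 5 lower and a median log2 fold change of -0.36.

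Genes of the brain territories also differed from embryo to embryo. A list of 11 midbrain and anterior hindbrain genes stood at a median of 31.5% of the Bahd1-WT mean in KO1, 110% in KO2 and 8.03% in KO3. The median was 82.2% to 114% in the single Bahd1-WT embryos. In KO1, 8 of the 11 genes stood under 50%, among them En2, Pax5, Pax7 and Barhl1. Otx2 and Pou4f1 stood at 86.4% and 67.2% there, and the highest gene of the list at 101%. In KO3, all 11 stood under 50%. En2, an engrailed factor of the midbrain and anterior hindbrain, had 44, 1021 and 209 counts in KO1, KO2 and KO3, and 1182, 677 and 1315 in WT1, WT2 and WT3. Hoxa2, Hoxa3, Hoxb3, Hoxd3 and Hoxa4, which mark the hindbrain and regions behind it, had 0 counts in KO1, and WT2 also had 0 counts of Hoxd3 and Hoxa4 and 1 of Hoxa3. Hoxb3 had 278 and 1302 counts in KO2 and KO3, and 82, 10 and 51 counts in WT1, WT2 and WT3. In contrast, Neurod6, a transcription factor of cortical neurons, stood at 150% of the Bahd1-WT mean in KO1 and at 6.88% in KO3. The part of these territory genes, and of the lung genes and untailed RNAs of KO3, in the values of the members was not tested.

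**Figure D4:**
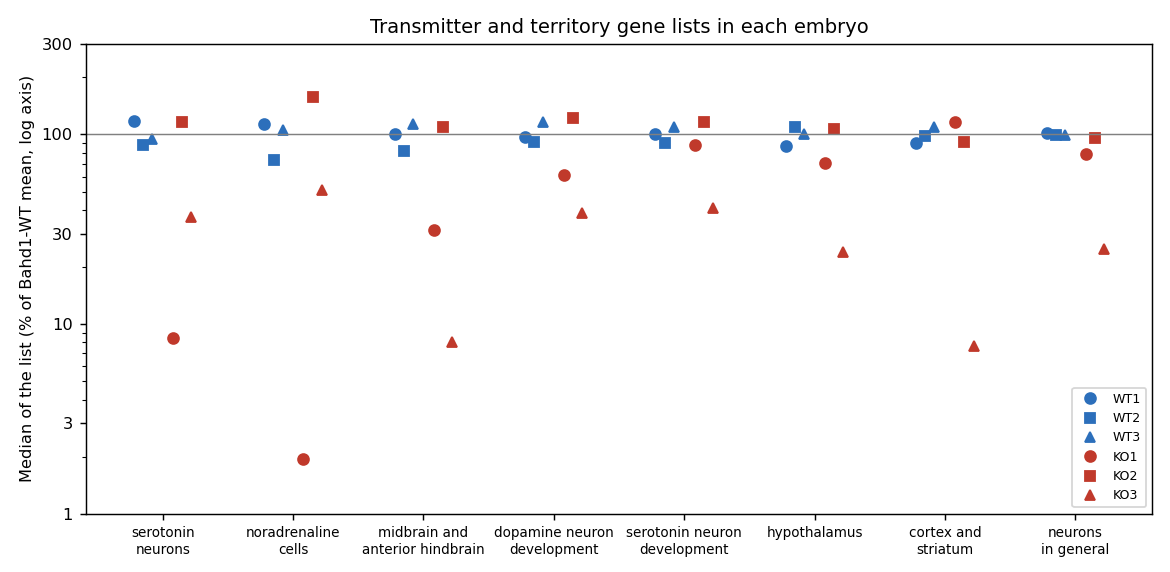
Median level of each gene list in each embryo, as percent of the Bahd1-WT mean on a log axis; blue points are Bahd1-WT and red points Bahd1-KO embryos, and the shape gives the replicate number. KO1 (red circles) is at 8.47% for the 3 serotonin genes and 1.95% for the noradrenaline genes but at 117% for cortex and striatum, and KO3 (red triangles) is at 7.66% for cortex and striatum.

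The other genes of the dopamine and serotonin pathways were not called either. Over 58 listed genes, those of noradrenaline and histamine cells included, 0 were called by edgeR, and DESeq2 and voom also called 0. At an unadjusted p under 0.05, edgeR counted 0 of them against 4.67% of all genes, DESeq2 1 against 5.12% and voom 6 against 8.95%. Without KO2, edgeR counted 8 of 57, against 20.2% of all genes. Without KO1 it counted 7 of 58, against 2451 of all 24309 genes. Of the 58 genes, 36 had a lower fitted level in Bahd1-KO embryos, where the median log2 fold change over all genes was 0.06. Among 16 genes of dopamine neuron development, 11 were lower and 5 higher, with a median log2 fold change of -0.47. Wnt1, a signal of the midbrain and hindbrain border, had 4, 28 and 0 counts in KO1, KO2 and KO3, and 7, 23 and 25 in WT1, WT2 and WT3, and Otx2, which sets the midbrain territory, had 1816, 3329 and 139 against 3464, 2067 and 3704. Foxa2, a ventral midbrain factor that lung epithelium also uses, stood at 59.0%, 138% and 1590% of the Bahd1-WT mean in KO1, KO2 and KO3. Foxa2 was highest in KO3, the embryo with the highest summed level of lung genes, and a link between the 2 was not tested. Among 13 genes of serotonin neuron development, 11 were lower and 2 higher, with a median of -0.40. Gata3, a factor of serotonin neuron precursors, stood at 44.1%, 127% and 16.0% of the Bahd1-WT mean in KO1, KO2 and KO3. Insm1, which acts in many neuron precursors, stood at 116% in KO1 and at 2.99% in KO3.

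Of 9 genes for the making and breakdown of monoamines in general, 6 were higher and 3 lower in Bahd1-KO embryos, with a median log2 fold change of 0.16. Maoa, which breaks down serotonin and noradrenaline, stood at 119%, 105% and 153% of the Bahd1-WT mean in KO1, KO2 and KO3. Maob had 375, 361 and 3763 counts in KO1, KO2 and KO3, and 604, 377 and 348 in WT1, WT2 and WT3. Its log2 fold change was 2.51 with an edgeR adjusted p of 0.696, and 0.08 without KO3, the embryo that held nearly all of the difference. Pts and Qdpr, which make and recycle the cofactor of both hydroxylases, stood at 134% and 87.3% in KO1 and at 91.8% and 126% in KO3.

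On the receiving side, of 7 dopamine receptor and signal genes, 5 were lower and 2 higher, with a median log2 fold change of -0.39. Drd1, the receptor of direct pathway neurons in the striatum, stood at 134%, 96.4% and 106% of the Bahd1-WT mean in KO1, KO2 and KO3. Drd2, which is also an autoreceptor on dopamine neurons, stood at 61.1%, 91.9% and 48.4%. Of 14 serotonin receptor genes, 8 were lower and 6 higher, with a median of -0.12. Htr2c and Htr1b had the highest Bahd1-WT means, at 16.9 ± 5.85 and 16.3 ± 5.79 TMM-scaled CPM (SD, n = 3). These levels were not divided by length, and the order of the 2 genes is not resolved. Htr2c stood at 124%, 112% and 169% of the Bahd1-WT mean in KO1, KO2 and KO3. Htr1a, the autoreceptor of serotonin neurons that many other neurons also express, stood at 104%, 92.4% and 83.3%. In KO1, the serotonin receptor genes had a median of 105% and the 3 serotonin neuron genes one of 8.47%.

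Genes whose pattern over the 6 embryos was most like that of Tph2 or Slc6a3 were named by Pearson's r on log2(TMM-scaled CPM + 0.5), among 15617 other genes with a mean of at least 50 counts. For Tph2 these were Syp (r = 0.998), Nrsn2 (0.981), Ccdc60 (0.978), Cnpy1 (0.978) and Kirrel2 (0.978). Such an r does not measure the size of a change: in KO1, Syp stood at 75.3% of the Bahd1-WT mean and Tph2 at 8.47%. Slc6a2 ranked 6, Dbh 16, En2 17, Ddc 37 and Slc6a4 51, so that noradrenaline genes stood closer to Tph2 than its partner transporter did. For Slc6a3 the closest were Gm42517 (0.995), Osbp2 (0.993), Cbln1 (0.990), Sstr1 (0.990) and Nptxr (0.988), with Lmx1b at rank 224 and Th at rank 2292. Tph2 and Slc6a3 themselves had an r of 0.400 over 6 embryos and 0.907 without KO3. The 6 points share library composition, and with so few points these values are descriptions only.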

How the data were processed

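Polyadenylated RNA from the whole brain of 6 embryos was measured. Per the study's methods, the authors built stranded libraries, sequenced single-end reads in repeated runs and counted reads over exons of GRCm38. The submitters' processing notes name cutadapt 1.11, STAR 2.5.0a, featureCounts 1.4.6-p3 and DESeq2 1.20.0. The methods also name TopHat2, and which aligner made the table is not given in the sources used here. The deposited counts were raw, 1 column per embryo. Strand-specific counting was stated, and no member shared exon bases on its strand with another gene.

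The two-sided quasi-likelihood test of edgeR 4.0.16 (R 4.3.3) was fitted on genotype alone, with TMM factors, over genes whose counts summed to 10 or more, and Benjamini-Hochberg adjustment covered all genes tested, at a threshold of 0.05. The p-values measure the spread between the embryos as labelled. DESeq2 1.42.0, voom (limma 3.58.1), other filters and scalings, the replicate number as a block and leaving out embryos were alternatives, the fit without KO1 and KO3 having been added after seeing the data. Scripts were tested on simulated data in which embryos of a genotype shared 1 composition and their spread was capped. That check therefore does not cover libraries like KO3. Exon lengths came from GENCODE M21, which matched 53706 of 53801 genes (99.82%), and promoters from RefSeq, which held all 9 members; the 5′-most of 2 windows was used for Ddc. Poisson and Wilson intervals and floors (3 counts) cover counting error only.

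The members and the 23 gene lists, written from textbook knowledge, were chosen with earlier results of these data known. The text names the 9 members, Bahd1, up to 6 genes of highest mean level in each list, genes absent from an embryo, and the 5 genes most like Tph2 and Slc6a3. Foxa2 and Lmx1b, outside that rule, were chosen after their values were seen. Of the list entries, 1 was not analysed here, and 3 (Hoxb1, Hoxd4 and Cts7) fell under the count minimum and were not tested.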

Additional observations from a re-analysis of the deposited data

How the results depend on the processing

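The count of members called was 0 under all 20 alternatives, and so was the count over the 58 pathway genes. At an unadjusted p under 0.05, voom counted 4 members (8.95% of all genes, lowest adjusted p 0.535) and the fit without KO2 counted 3 (20.2%, lowest adjusted p 0.235). The edgeR fit with the replicate block and without KO3 counted 1 member, beside 2171 of all 23334 genes (lowest adjusted p 0.537). The count over all genes was 1 with edgeR, 8 with DESeq2, 6 with voom, 6 with the edgeR likelihood ratio test, and 0 with at least 10 counts in every embryo, with the replicate block or with 6130 ribosomal, mitochondrial and small RNA genes left out. Leaving out each embryo in turn gave 0 to 4 (4 without KO3), DESeq2 without that embryo 11, the replicate block without it 16, and leaving out KO1 and KO3 gave 44. The causes were not tested.

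The median log2 fold change of the members ranged from -1.21 (without KO2) to -0.25 (without KO3) with single embryos left out, and was 0.19 with KO1 and KO3 left out. Scaling moved the median of all genes from 0.06 to 0.17 (upper quartile) or -0.11 (total counts), and the members' median relative to it stayed from -0.56 to -0.52. Signs turned for Ddc with filterByExpr (0.03), with at least 10 counts in every embryo (0.03), with upper-quartile factors (0.08), and without KO1 (0.25) or WT3 (0.09). With single embryos left out, log2 fold changes ranged from -1.63 to -0.49 for Th, -1.21 to -0.25 for Slc6a3, -1.96 to -0.41 for Slc6a4, -2.91 to -0.34 for Fev, -0.24 to 0.25 for Ddc, -1.03 to 0.07 for Tph2, -2.51 to 0.28 for Pitx3, -0.56 to 0.01 for Nr4a2 and -0.72 to 0.10 for Slc18a2. Without KO1, they turned for Tph2 (0.07) and Pitx3 (0.11). Without KO3, they turned for Nr4a2 (0.01, also 0.01 with DESeq2), Pitx3 (0.28, 0.23 with DESeq2 and 0.21 with the replicate block) and Slc18a2 (0.10, 0.10 with DESeq2 and 0.16 with the block), and with voom for Slc18a2 (0.16). With KO1 and KO3 left out, the values were 0.12 for Th, 0.19 for Slc6a3, 1.01 for Pitx3, 0.24 for Tph2, 0.19 for Slc6a4, 0.37 for Fev, 0.21 for Ddc and 0.01 for Slc18a2. Pitx3 fell under filterByExpr, and Pitx3 and Fev under the minimum in every embryo.

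Same-numbered embryos deviated together by r of 0.26, 0.34 and -0.12, and not every embryo correlated best with its own number, so the numbers were not taken to pair them. The replicate block called 0 members, with a median of -0.75. Depth limited Pitx3 and Fev, with 0 to 9 and 0 to 76 counts.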

Other observations

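The hypothalamus also holds dopamine neurons, and its 12 listed genes were not called between genotypes (3 higher, 9 lower, median log2 fold change -0.21). Their median stood at 71.1%, 107% and 24.1% of the Bahd1-WT mean in KO1, KO2 and KO3. Isl1, a factor of hypothalamic and striatal neurons, stood at 140% in KO1, and Otp, a factor of hypothalamic neuroendocrine cells, at 67.3%. Nkx2-1, which the hypothalamus shares with the lung, had 9739 counts in KO3 and 1172 to 2250 in the other embryos. Hdc, the enzyme of histamine synthesis, stood at 85.3%, 103% and 695% in KO1, KO2 and KO3, and 5 mast cell genes had a median of 715% in KO3.

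Of the other lists, 0 genes were called for progenitors (4 higher, 1 lower, median log2 fold change 0.53), glia (2 higher, 4 lower, -0.27), blood (5 higher, 2 lower, 0.29), muscle (6 higher, 0 lower, 2.48), placenta (4 higher, 0 lower, 6.13), lung (6 higher, 0 lower, 9.23), untailed RNAs (5 higher, 0 lower, 6.26), mast cells (4 higher, 1 lower, 1.43), cortex and striatum (0 higher, 9 lower, -0.47), neurons in general (1 higher, 7 lower, -0.30), midbrain and anterior hindbrain (0 higher, 11 lower, -0.98) and hindbrain (9 higher, 1 lower, 3.51). At an unadjusted p under 0.05, edgeR counted 6 of 6 lung, 5 of 5 untailed, 4 of 10 hindbrain, 2 of 7 blood, 2 of 4 placenta and 1 of 5 mast cell genes. The share over all 24739 genes tested was 4.67%. Single embryos held most of these levels: the summed level was highest in KO3 for the lung and untailed lists and in KO2 for the placenta list.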
